A study of Drosophila melanogaster with 9 samples.

Results

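The genes described here are 50 unnamed genes of the fly testis that kept at most 10% of their control read level when the splicing factor U2af38 was depleted. They were chosen from 17575 counted genes by a fixed rule. A gene had to code for a protein, carry only a systematic symbol (CG and a number, given when the genome was annotated and kept until a gene is named), have 2 or more separate exon blocks, and lie off chromosome 4 and the Y chromosome. Its mean had to reach 10 CPM (counts per 1000000 counted fragments of the library, with no other scaling) in control and be at most 10% of that in *U2af38* RNAi. Of 4757 unnamed coding genes with 2 or more blocks off these chromosomes, 2069 reached 10 CPM in control and 50 of these (2.42%) met the ratio. Over all 7531 genes of any class at 10 CPM or more in control, 153 (2.03%) met it. As the ratio chose the members, their low level in *U2af38* RNAi is a description and was not tested.

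Total RNA depleted of ribosomal RNA was sequenced from whole testes of males aged 1 to 3 days, 100 pairs of testes a sample. *U2af38* RNAi and *SRPK* RNAi testes carried a UAS-RNAi transgene driven by *bam-GAL4*, which acts in late spermatogonia and spermatocytes, so somatic cells and early germ cells were not targeted. Control males came from the parental *bam-GAL4* stock or were brothers out of the cross, and which of these applied to each sample is not given in the sources used here. Each genotype had 3 biological replicates, and each library was run on 2 lanes, which were summed.

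U2af38 is the small subunit of U2AF, the complex that marks the 3′ splice site for the spliceosome, and SRPK is a kinase that phosphorylates the arginine-serine domains of splicing proteins. Spermatocytes transcribe a large set of genes used in no other tissue, many of them for the later building of the sperm. By the study's microscopy, germ cells of *U2af38* RNAi stopped as spermatocytes, whereas those of *SRPK* RNAi looked normal but made sperm that did not move. In whole testes, fewer cells of a type and less RNA per cell cannot be told apart.

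The libraries held between 18497748 and 20774681 counted fragments in *U2af38* RNAi, between 25185322 and 28412334 in *SRPK* RNAi and between 20908187 and 30002574 in control. The limit of 3 counts used for low values corresponded to at most 0.162 CPM and covers counting error only. *U2af38* itself gave 3.24, 5.68 and 4.04 CPM in *U2af38* RNAi, against 32.4, 35.6 and 33.5 CPM in control. *SRPK* gave 65.2, 58.5 and 60.0 CPM in *SRPK* RNAi, against 236, 209 and 229 CPM in control. In the other knockdown *SRPK* gave 804, 764 and 858 CPM in *U2af38* RNAi, and *U2af38* gave 50.5, 45.6 and 41.8 CPM in *SRPK* RNAi. All 10 spermatocyte markers listed for the check of the tissue (such as *aly*, *can* and *topi*) had more than 3 counts in every library. Their summed level was 646 to 656 CPM in *U2af38* RNAi, 464 to 557 CPM in *SRPK* RNAi and 380 to 434 CPM in control. Levels relative to control depend on the scale: the TMM factors that edgeR derives from the bulk of the genes were 1.30 to 1.32 in *U2af38* RNAi and 0.816 to 0.864 in control, and dividing by them lowers *U2af38* RNAi against control. On that scale the spermatocyte sums were 490 to 503 CPM in *U2af38* RNAi, 527 to 589 CPM in *SRPK* RNAi and 460 to 502 CPM in control, and edgeR called 4 of the 10 lower and 3 higher in *U2af38* RNAi, where 37.5% of all genes tested fell and 44.7% rose.

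The 50 members had a median of 4.65 CPM in *U2af38* RNAi (0.338 to 132), 50.6 CPM in *SRPK* RNAi (5.91 to 960) and 72.6 CPM in control (12.7 to 1545). Their median level in *U2af38* RNAi was 7.58% of control, between 1.49% and 9.87%. The 2019 genes of the same class that missed the ratio had a median of 102% of control, and 1030 of the 2069 genes were above control in *U2af38* RNAi. With TMM scaling that median was 65.9% and 585 were above control. The members are therefore the low end of a wide and continuous range, as the histogram of ratios shows: 474 genes were at 1/2 of control or below and 136 at 1/5 or below.

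**Figure D1:**
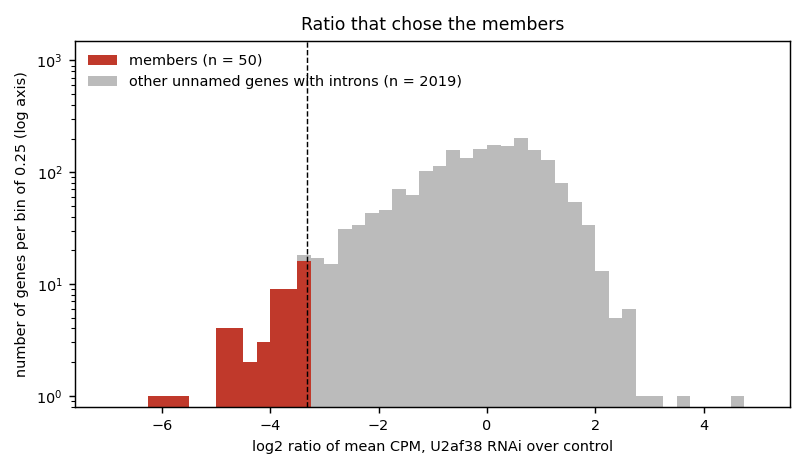
Histogram of the log2 ratio of mean CPM in *U2af38* RNAi over control (x axis, bins of 0.25) for the 2069 unnamed coding genes with 2 or more exon blocks and at least 10 CPM in control; the y axis counts genes on a log scale, red bars are the 50 members, grey bars the 2019 other genes, and the dashed line is the ratio of 0.1 that chose the members. There is no gap at the line.

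Just inside the limit were *CG33017* at 9.87%, *CG12914* at 9.84% and *CG33125* at 9.75% of control. Just outside it were *CG31296* at 10.03%, *CG8100* at 10.45% and *CG32391* at 10.52%. Without replicate 1 of *U2af38* RNAi the rule gave 45 genes, of which 42 were among the 50.

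In each of the 50 members every *U2af38* RNAi library was below every control library and below every *SRPK* RNAi library. Both follow largely from the choice of genes that were very low in *U2af38* RNAi. The summed level of the members was 606 to 817 CPM in *U2af38* RNAi, 6578 to 7038 CPM in *SRPK* RNAi and 8948 to 9043 CPM in control. Without the member of highest CPM, *CG14926*, the sums were 494 to 676 CPM, 5649 to 6051 CPM and 7380 to 7508 CPM in the same order of genotypes. The 3 *U2af38* RNAi libraries were not alike at this low level: replicate 1 was the lowest of them in 35 members and replicate 3 the highest in 41. The median coefficient of variation over libraries was 18.1% in *U2af38* RNAi, 7.91% in *SRPK* RNAi and 4.50% in control.

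**Figure D2:**
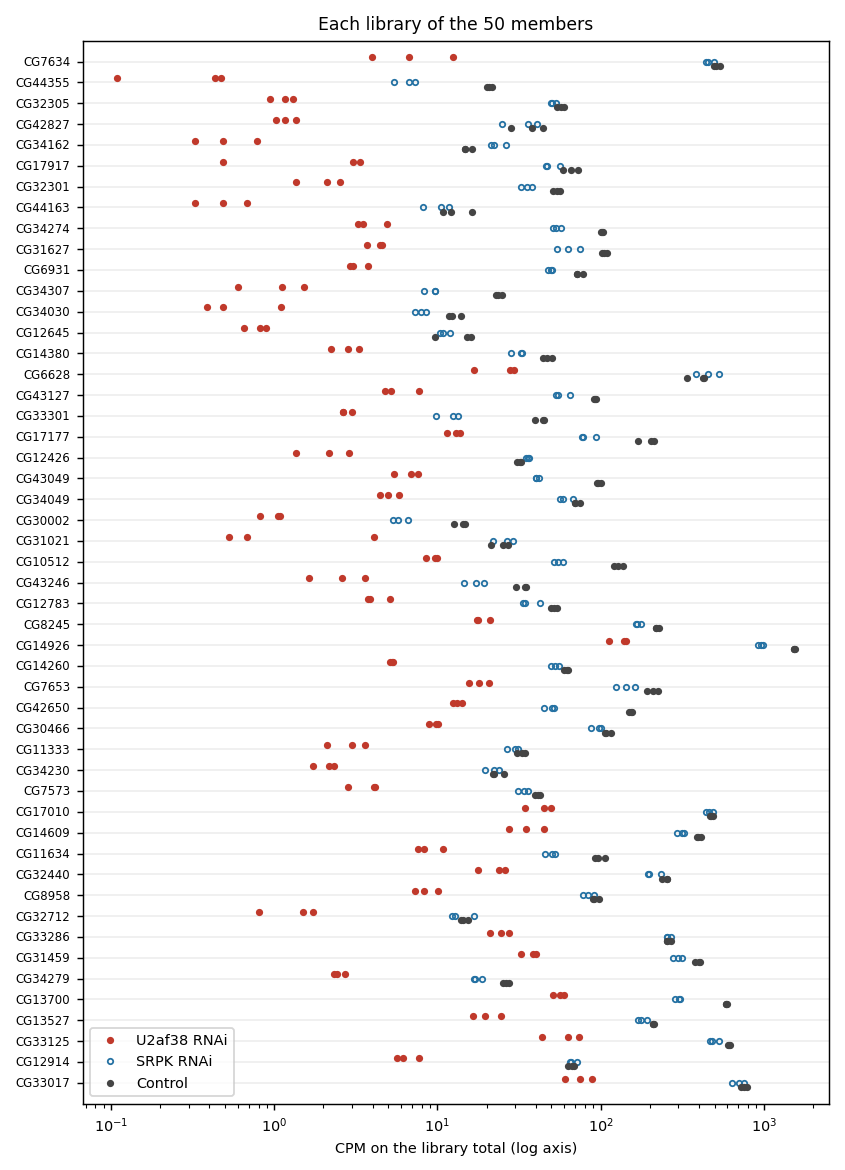
CPM on the library total (x axis, log scale) of the 50 members (rows, sorted with the lowest ratio of *U2af38* RNAi to control at the top) in each of 3 libraries of *U2af38* RNAi (red, filled), *SRPK* RNAi (blue, open) and control (dark grey, filled). In every row the red points lie left of the others, while blue and grey points lie close together in many rows and apart in others such as *CG33301* and *CG42650*.

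*CG7634* (FBgn0037101, chromosome 3L from 21565426 to 21567785 on dm6, plus strand) had the lowest level relative to control. Its libraries gave 3.95, 6.69 and 12.4 CPM in *U2af38* RNAi, against 508, 498 and 539 CPM in control, so 1.49% was left. The *U2af38* RNAi libraries differed from each other by a wide margin and still lay far below the control libraries. *CG7634* has 9 exon blocks, a coding sequence for 579 residues and 8 introns, the longest of 64 bp.

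*CG44355* (FBgn0265455, 3L from 12310805 to 12311961) followed at 1.62% of control. It had 2, 9 and 9 counts in the *U2af38* RNAi libraries, against 480, 454 and 605 counts in control, and was the single member with a library at or under 3 counts. Its annotated protein of 56 residues is the shortest of the members, and both of its introns lie outside the coding sequence, with 1 in the 5′ and 1 in the 3′ untranslated region.

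*CG32305* (3L from 2248635 to 2252729) and *CG32301* (3L from 2244478 to 2248614) are neighbours on the plus strand, 20 bp apart, with no other coding gene between them, and were both among the 10 lowest. RefSeq lists the synonym AC for both, an abbreviation in use for adenylyl cyclase, the enzyme that makes cyclic AMP. *CG32305* gave 1.30, 1.16 and 0.945 CPM in *U2af38* RNAi, against 57.6, 53.9 and 59.3 CPM in control. *CG32301* gave 1.35, 2.12 and 2.52 CPM in *U2af38* RNAi, against 54.4, 51.4 and 56.5 CPM in control. Their control levels were alike, at 16.3 and 15.1 CPM per kb of exon, and with 12 and 11 blocks they are the members with the most exon blocks. They code for 1164 and 1111 residues, and the longest gap between exon blocks is 66 bp in both.

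Of the other members among the 10 lowest, *CG42827* had 1.03, 1.16 and 1.37 CPM in *U2af38* RNAi, against 38.2, 44.4 and 28.1 CPM in control. *CG17917* had 0.487, 3.03 and 3.36 CPM in *U2af38* RNAi, against 72.3, 65.7 and 59.1 CPM in control. Relative to its mean, *CG17917* was more widely spread in *U2af38* RNAi (mean 2.29, SD 1.57 CPM) than in control (mean 65.7, SD 6.62 CPM). *CG34162*, *CG44163*, *CG34274* and *CG31627* were left at 3.48%, 3.79%, 3.81% and 3.99% of control.

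*CG31021*, named here after its values were seen, was the least even member. Its libraries gave 4.11, 0.529 and 0.683 CPM in *U2af38* RNAi, against 27.1, 21.4 and 25.3 CPM in control. Its first *U2af38* RNAi library held 76 fragments and the others 11 and 13, so most of its 7.20% of control came from replicate 1.

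*CG14926* (FBgn0032360, 2L from 11342301 to 11343318, minus strand) had the highest CPM in control, with 112, 144 and 140 CPM in *U2af38* RNAi, against 1535, 1567 and 1534 CPM in control. Per length it also led the members, with 155 CPM per kb of exon in *U2af38* RNAi and 1812 CPM per kb in control. It was left at 8.54% of control and codes for 174 residues. Next in control came *CG33017* with 60.2, 74.6 and 89.0 CPM in *U2af38* RNAi, against 754, 722 and 792 CPM in control. *CG33125* had 43.7, 62.8 and 73.3 CPM in *U2af38* RNAi, against 622, 607 and 615 CPM in control. These 2 genes share a plan, a short first block and a block of several kb parted by a gap of 63 and 60 bp, and their proteins have 1630 and 1263 residues. The first of these is the longest protein among the members.

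*CG13700* (3L, 10 exon blocks) gave 51.5, 60.1 and 56.4 CPM in *U2af38* RNAi, against 594, 589 and 588 CPM in control. *CG17010*, *CG14609*, *CG6628*, *CG31459* and *CG33286* completed the 10 with the highest CPM in control, with means of 43.0, 36.0, 24.7, 37.2 and 24.3 CPM in *U2af38* RNAi, against 478, 399, 398, 396 and 261 CPM in control. Over the members the control level per length had a median of 55.1 CPM per kb of exon (8.83 to 1812), beside 25.7 CPM per kb in the 2019 genes that missed the ratio.

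What the members share beyond the rule was read from their gene structure, which is a property of genes with no replicates, so medians and shares are set beside those of the 2019 genes that missed the ratio and no test was made. The members tended to be small genes with short introns. They had a median of 3 exon blocks, with quartiles of 3 and 4.75, beside a median of 4 with quartiles of 2 and 6. Genes of only 2 blocks made up 11 of 50 members, beside 587 of 2019. The median exon length was 1102 bp, beside 1785 bp. Their proteins had a median of 284 residues, beside 406, and 14 of 50 (28%) were shorter than 200 residues, beside 19.6%. A single annotated transcript was listed for 30 of 50 (60%), beside 43.0%.

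**Figure D3:**
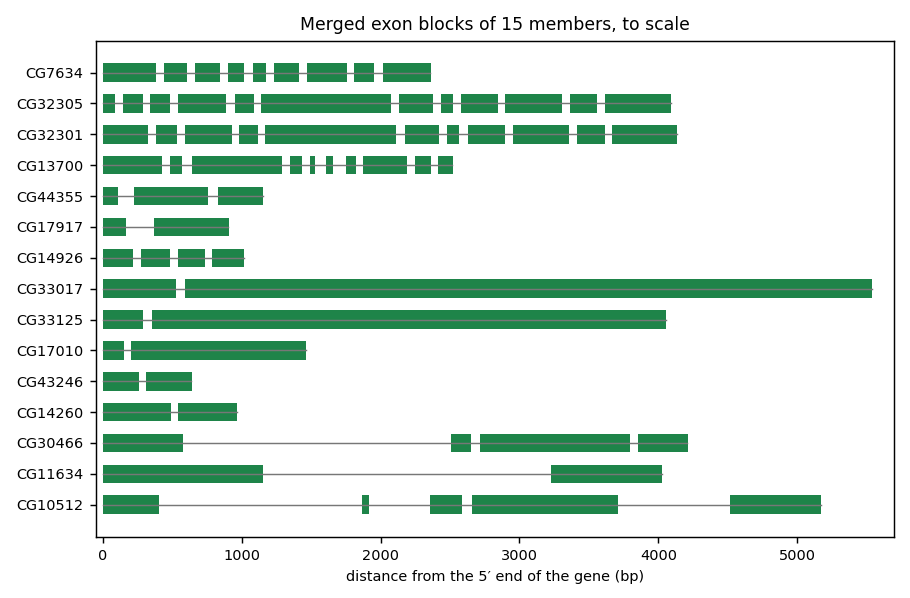
Merged exon blocks (green) and the gaps between them (grey line) of 15 named members, drawn to scale from the 5′ end of each gene on the transcribed strand (x axis in bp). Most gaps are too short to stand out, and only *CG30466*, *CG11634* and *CG10512* have a gap of more than 1000 bp.

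The 162 gaps between exon blocks of the members had a median of 58 bp, and 88.3% were under 100 bp. The 7334 gaps of the other genes had a median of 68 bp, and 63.4% were under 100 bp. The difference lay in the long gaps: the longest gap of a gene had a median of 68 bp in the members, beside 122 bp. In 34 of 50 members (68%) every gap was under 100 bp, beside 46.8%, and 3 (6%) had a gap over 1000 bp, beside 444 of the 2019. In the plot of gap lengths both curves rise mostly below 100 bp, and the curve of the other genes has the larger tail above it. With introns of single Ensembl transcripts in place of gaps between merged blocks, the median longest intron of the members was 69.5 bp.

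**Figure D4:**
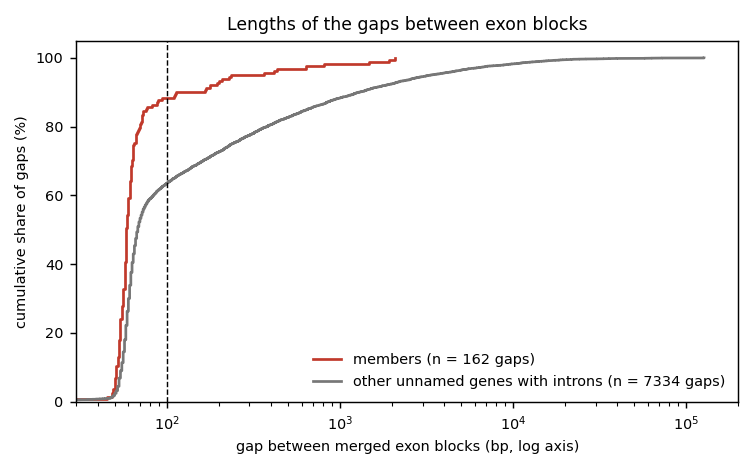
Cumulative share of gaps between merged exon blocks (y axis, %) by gap length (x axis, bp, log scale) for the 50 members (red, 162 gaps) and the 2019 genes that missed the ratio (grey, 7334 gaps). The dashed line marks 100 bp, and 88.3% of the member gaps and 63.4% of the others are shorter than that.

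The shortest total of gaps was found in *CG14260* with a single gap of 48 bp, *CG43246* with 51 bp and *CG17010* with 53 bp. *CG14260* gave 5.14, 5.29 and 5.36 CPM in *U2af38* RNAi, against 62.4, 59.3 and 62.8 CPM in control. *CG43246* gave 2.59, 1.64 and 3.57 CPM in *U2af38* RNAi, against 34.3, 34.9 and 30.3 CPM in control. At the other end *CG11634* had a gap of 2078 bp, *CG30466* of 1929 bp and *CG10512* of 1464 bp. *CG11634*, whose intron in the transcript with the longest coding sequence lies in the 3′ untranslated region, gave 8.27, 7.65 and 10.8 CPM in *U2af38* RNAi, against 92.8, 96.7 and 106 CPM in control. *CG30466* gave 8.87, 9.82 and 10.03 CPM in *U2af38* RNAi, against 116, 106 and 108 CPM in control. *CG10512* gave 8.54, 9.72 and 9.98 CPM in *U2af38* RNAi, against 138, 121 and 128 CPM in control. Genes with a single very short gap and genes with a long gap thus stand side by side in the list, at 7.31% to 9.06% of control.

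Within the members, the level left in *U2af38* RNAi had a median of 8.56% in the 11 genes of 2 blocks, 6.21% in the 15 of 3 blocks, 8.54% in the 11 of 4 blocks and 7.31% in the 13 of 5 or more. It was 7.52% in the 34 members whose gaps were all under 100 bp and 7.86% in the 16 with a longer gap. Both splits gave medians within the narrow range that the rule allows.

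Of the 160 introns in the members' transcripts with the longest coding sequence, 154 (96.3%) interrupted the coding sequence, beside 89.8% in the genes that missed the ratio. Of the rest, 4 lay in 5′ and 2 in 3′ untranslated regions. The length was a multiple of 3 in 51 introns (31.9%), beside 32.9%.

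The members lay on all large chromosome arms, with 16 on 3L, 14 on 3R, 9 on 2L, 8 on 2R and 3 on X. Arm 3L held 32% of the members, beside 18.9% of the genes that missed the ratio, and the X chromosome held 6%, beside 15.9%. These shares were not tested. Apart from *CG32301* and *CG32305* no 2 members were adjacent coding genes. Of the coding genes next to a member, 54 reached 10 CPM in control and were no member themselves, and 0 of these were at 10% of control or below in *U2af38* RNAi. The rule fixed much of this, as an unnamed neighbour with introns at that level would itself be a member. Over all genes at 10 CPM or more in control 2.03% met the ratio. Some neighbours lay just above the limit, such as *CG32391* at 10.5% and *CG31600* at 11.1% of control. The median of the 54 neighbours was 99.7% of control, and 27 of the 54 were above control. With TMM scaling 4 of them were at 10% or below, the median was 64.1% and 16 were above control.

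Among the members, 9 (18%, beside 9.11%) lay inside an intron of another gene, 4 on the strand of the host and 5 on the opposite one. The hosts ranged from 62.9% to 787% of control in *U2af38* RNAi and 7 of the 9 were above it. The 787% belongs to *CG42260*, which had a mean of only 0.527 CPM in control. The hosts *CG34353* and *CG32204* were also low in control, at 1.46 and 2.06 CPM. With TMM scaling the hosts ranged from 40.4% to 504% and 5 were above control. Of the hosts edgeR called 4 higher and 3 lower (*Tob*, *CG8641* and *dpr10*), where 44.7% of all genes tested rose and 37.5% fell. *CG17010*, for example, lies in an intron of *bru2*, which encodes an RNA-binding protein of the Bruno family. *bru2* had a mean of 116 CPM in *U2af38* RNAi, against 57.9 CPM in control, while *CG17010* had 43.0 CPM against 478 CPM. *CG34307* lies on the opposite strand in an intron of the cadherin gene *Cad87A*, which had 25.8 CPM in *U2af38* RNAi, against 10.8 CPM in control. Both of these hosts are among the 4 called higher. With TMM scaling *bru2* was at 129% and *Cad87A* at 154% of control in *U2af38* RNAi. Exons of 8 members (16%, beside 30.3%) overlapped exons of a gene on the opposite strand, and 3 members, *CG12783*, *CG34279* and *CG12914*, shared exon sequence with a gene on their own strand. Fragments in such shared stretches were not counted for either gene, so the levels of these 3 are uncertain to that extent.

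The symbols say nothing of what the members do, and no protein sequences or domain annotations were used here. All 50 had an entry in RefSeq's gene table, and a few synonyms there name a family. *CG30002* is listed as SP246 and *CG13527* as SPH182, names of the fly series of serine proteases and of serine protease homologues, which lack the catalytic residues. *CG30002* gave 1.08, 0.818 and 1.05 CPM in *U2af38* RNAi, against 14.7, 14.3 and 12.7 CPM in control. *CG13527* gave 16.5, 19.7 and 24.7 CPM in *U2af38* RNAi, against 209, 209 and 212 CPM in control. *CG30466*, the gene with the gap of 1929 bp, is listed as FBXO19, a name of the F-box proteins, which choose targets for ubiquitin ligases.

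The same rule was met by genes outside the class. Among named coding genes with 2 or more blocks 18 of 4073 (0.442%) met it, among unnamed genes with a single block 20 of 645 (3.10%), and among named genes with a single block 4 of 363 (1.10%). A share of lost genes at this level was thus found in unnamed genes with and without annotated introns. The difference between the classes was not tested. Genes of a single block have no annotated gap between exons.

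*SRPK* RNAi served as a second knockdown of a splicing regulator whose libraries took no part in the choice of the members. The control libraries are shared with the rule, so this comparison is not fully independent of it. All 50 members passed the filter on low counts and were tested with edgeR among 14941 genes. Of these, 34 (68%) fell in *SRPK* RNAi, 1 (2%) rose and 15 did not pass an adjusted p of 0.05. Over all genes tested, 21.1% fell and 20.3% rose. Of the 2019 genes of the class that missed the *U2af38* RNAi ratio, 31.8% fell and 21.3% rose.

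The falls were moderate. The members' log2 fold changes in *SRPK* RNAi had a median of −0.49, with quartiles of −0.83 and −0.26, beside 0.01 over all genes tested and −0.04 over the 2019 genes. Of the 50, 47 were below 0 and 3 above. There were 12 that fell by more than 1 on the log2 scale, which 5.37% of all genes tested did. In CPM of the library total the members were left at a median of 76.9% of control in *SRPK* RNAi, with a range of 27.7% to 152%, and 8 were at less than 50%. The 3 *SRPK* RNAi libraries lay below the 3 control libraries without overlap in 34 members (background 18.6%) and above them in 2 (background 32.9%), with overlap in 14.

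**Figure D5:**
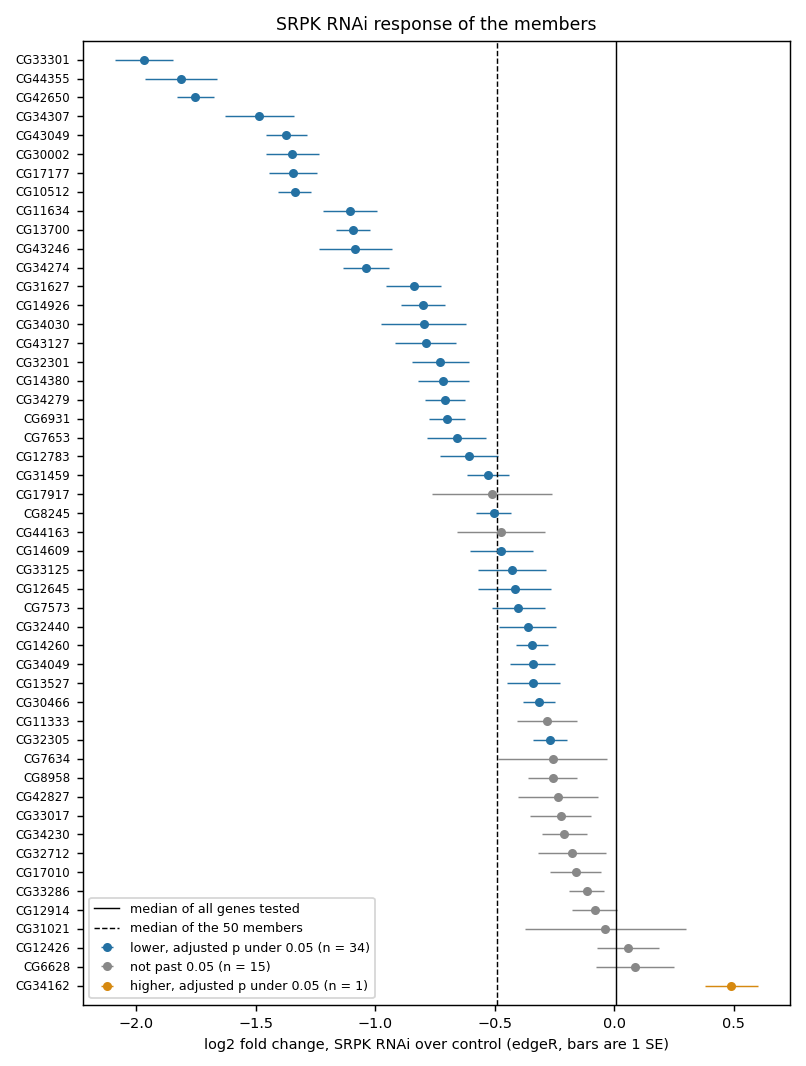
log2 fold change of *SRPK* RNAi over control (x axis, edgeR, bars are 1 SE) for the 50 members (rows), coloured blue for the 34 that fell, orange for the 1 that rose and grey for the 15 that did not pass an adjusted p of 0.05. The solid line is the median of all genes tested (0.01) and the dashed line the median of the members (−0.49), and most points lie left of the solid line.

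The fold changes rest on scaling factors (TMM) computed from the genes themselves. Scaled on library size alone, 28 of the 34 fell and 1 member rose. That scaling moved the median over all genes from 0.01 to 0.12 and the calls over all genes to 2263 that fell and 4336 that rose, against 3155 and 3032 with TMM factors.

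*CG33301* (FBgn0053301, 2L from 10049580 to 10051201) had the largest fall in *SRPK* RNAi. Its libraries gave 9.84, 13.4 and 12.5 CPM in *SRPK* RNAi, against 39.7, 45.1 and 44.3 CPM in control. The groups were far apart, with a log2 fold change of −1.97 ± 0.12 (SE; edgeR, Benjamini-Hochberg adjusted p = 4.43e-07). In *U2af38* RNAi it was at 2.65, 2.65 and 2.99 CPM, lower still. *CG33301* has a single gap of 59 bp.

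*CG44355*, the second lowest member in *U2af38* RNAi, was also the second in *SRPK* RNAi. Its libraries gave 7.27, 5.42 and 6.67 CPM in *SRPK* RNAi, against 20.8, 21.7 and 20.2 CPM in control (log2 fold change −1.81 ± 0.15, SE; edgeR, Benjamini-Hochberg adjusted p = 3.22e-06). *CG42650* gave 44.9, 50.4 and 52.2 CPM in *SRPK* RNAi, against 149, 156 and 154 CPM in control (−1.75 ± 0.08, SE; edgeR adjusted p = 3.74e-08). Both genes have 3 blocks and their libraries did not overlap.

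*CG34307* gave 8.23, 9.64 and 9.65 CPM in *SRPK* RNAi, against 23.4, 24.9 and 22.96 CPM in control (log2 fold change −1.48 ± 0.14, SE; edgeR adjusted p = 1.08e-05). Its host gene *Cad87A* had means of 11.2 CPM in *SRPK* RNAi and 10.8 CPM in control. *CG43049*, also inside an intron of another gene, gave 41.8, 40.0 and 40.1 CPM in *SRPK* RNAi, against 94.5, 101 and 95.9 CPM in control (−1.37 ± 0.08, SE; edgeR adjusted p = 4.03e-07).

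The other members that fell by more than 1 on the log2 scale were *CG30002*, *CG17177*, *CG10512*, *CG11634*, *CG13700*, *CG43246* and *CG34274*, between −1.35 and −1.04. They span the structures of the list, with a gap of 2078 bp in *CG11634* and of 51 bp in *CG43246*, and 10 blocks in *CG13700*. Among the members with the highest CPM, *CG14926* gave 930, 965 and 987 CPM in *SRPK* RNAi, against 1535, 1567 and 1534 CPM in control (−0.80 ± 0.09, SE; edgeR adjusted p = 3.65e-05). *CG13700* gave 288, 303 and 307 CPM in *SRPK* RNAi, against 594, 589 and 588 CPM in control (−1.09 ± 0.07, SE; edgeR adjusted p = 6.20e-07). In both the libraries of a genotype were close to each other and the genotypes apart.

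The neighbours *CG32301* and *CG32305*, nearly equal in control, were set apart in *SRPK* RNAi. *CG32301* gave 35.6, 32.7 and 37.96 CPM in *SRPK* RNAi (log2 fold change −0.73 ± 0.12, SE; edgeR adjusted p = 0.000466). *CG32305* gave 53.4, 50.6 and 49.7 CPM in *SRPK* RNAi (−0.27 ± 0.07, SE; edgeR adjusted p = 0.00872), and this call was lost on library size alone (adjusted p = 0.130) and without replicate 3 of control (adjusted p = 0.0584). The difference between the genes was not tested.

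*CG34162* (FBgn0085191, 2L from 11531820 to 11533756, plus strand) was the single member that rose. Its libraries gave 26.4, 21.2 and 22.1 CPM in *SRPK* RNAi, against 16.2, 14.8 and 14.7 CPM in control (log2 fold change 0.49 ± 0.11, SE; edgeR, Benjamini-Hochberg adjusted p = 0.00425). In *U2af38* RNAi it had 0.324, 0.481 and 0.788 CPM, far below control. Its exons overlap those of the noncoding antisense gene *asRNA:CR42743* (2L from 11531966 to 11534547, minus strand) over 90.9% of their length. The antisense gene, looked at after the values of *CG34162* were seen, gave 3.56, 3.45 and 3.45 CPM in *SRPK* RNAi, against 20.001, 16.1 and 14.2 CPM in control (−2.38 ± 0.13, SE; edgeR adjusted p = 1.65e-07). In *U2af38* RNAi the antisense gene had 13.3, 13.4 and 16.5 CPM, which overlaps control on the library total. With TMM factors it was called lower there too (log2 fold change −0.85, edgeR adjusted p = 2.31e-05). The counting used strand, and whether the sense and antisense changes are linked was not tested.

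There were 15 members that did not pass the test in *SRPK* RNAi. *CG7634*, the lowest of all in *U2af38* RNAi, was among them, with 440, 459.1 and 499 CPM in *SRPK* RNAi, against 508, 498 and 539 CPM in control (log2 fold change −0.26 ± 0.23, SE; edgeR adjusted p = 0.394). *CG33286* had 270, 255 and 257 CPM in *SRPK* RNAi and the same values after rounding in control (−0.12 ± 0.07, SE; edgeR adjusted p = 0.218). *CG17010* had 441, 488 and 459.2 CPM in *SRPK* RNAi, against 479, 467 and 488 CPM in control. In these 3 genes the libraries of *SRPK* RNAi and control overlapped in CPM of the library total, while those of *U2af38* RNAi lay far below. On the TMM scale, which the fold changes use, every *SRPK* RNAi library of the 3 genes lay below every control library. *CG33017*, *CG6628*, *CG17917*, *CG42827*, *CG44163* and *CG12914* did not pass either. Of the 15, *CG17917* fell in the fit on control and *SRPK* RNAi libraries alone (edgeR adjusted p = 0.00126), as did *CG7634* (adjusted p = 0.0475).

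*CG12426*, named here after its values were seen, shows how the scale bears on the count. Its libraries gave 35.1, 36.5 and 36.1 CPM of the library total in *SRPK* RNAi, against 32.3, 32.4 and 30.9 CPM in control, without overlap. With TMM factors its log2 fold change was 0.06 ± 0.13 (SE; edgeR adjusted p = 0.755).

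The response to *SRPK* RNAi was set against gene structure within the members. Of genes with 2, 3, 4 and 5 or more blocks, 8 of 11, 10 of 15, 9 of 11 and 7 of 13 fell. Of the 34 members with all gaps under 100 bp 22 fell and 1 rose, and of the 16 with a longer gap 12 fell. The median longest gap was 72 bp in the 34 that fell and 64 bp in the 15 that did not pass. By arm, 13 of 16 fell on 3L, 9 of 14 on 3R, 7 of 9 on 2L, 4 of 8 on 2R and 1 of 3 on X. These counts are small and were not tested.

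Most genes of the other classes that met the *U2af38* RNAi ratio also fell in *SRPK* RNAi. Of the 18 named genes with 2 or more blocks 15 fell, with a median log2 fold change of −0.72, beside 18.9% of the genes of their class that missed the ratio. Of the 20 unnamed genes with a single block 15 fell, with a median of −0.71, beside 53.8% of their class. Of the 4 named genes with a single block 3 fell, with a median of −0.40, beside 31.2% of their class. In the 50 members the count was 34, with a median of −0.49, beside 31.8%. No class was tested against another.

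Cell type markers differed between the genotypes, and the direction of some sums depended on the scale. The 9 markers found of the list transcribed after meiosis (the cup genes, *hale*, *sunz* and *whip*) summed to 1647 to 1666 CPM in *U2af38* RNAi and 1713 to 1858 CPM in *SRPK* RNAi, against 1827 to 1921 CPM in control. With TMM scaling they summed to 1251 to 1283 CPM in *U2af38* RNAi, against 2164 to 2354 CPM in control. In *SRPK* RNAi that sum was 1812 to 2110 CPM. In *U2af38* RNAi 8 of the 9 markers fell and 1 rose, and in *SRPK* RNAi 4 fell and 1 rose (edgeR). Beside these and the calls of the other lists, 37.5% of all genes tested fell and 44.7% rose in *U2af38* RNAi. In *SRPK* RNAi the shares were 21.1% and 20.3%. One of the 9 markers, *d-cup*, itself met the ratio, with means of 4.93 CPM in *U2af38* RNAi and 67.2 CPM in control. The 6 muscle sheath markers summed to 587 to 666 CPM in *U2af38* RNAi and 293 to 425 CPM in *SRPK* RNAi, against 440 to 604 CPM in control. By edgeR 4 of the 6 fell and 0 rose in *U2af38* RNAi, and 6 of 6 fell in *SRPK* RNAi. With TMM scaling their sums were 452 to 506 CPM in *U2af38* RNAi and 310 to 482 CPM in *SRPK* RNAi, against 509 to 740 CPM in control. The 3 cyst cell markers summed to 111 to 121 CPM in *U2af38* RNAi and 83.7 to 101 CPM in *SRPK* RNAi, against 72.2 to 77.9 CPM in control. On the TMM scale the cyst cell sums were 85.2 to 93.5 CPM in *U2af38* RNAi, against 88.5 to 90.2 CPM in control. In *SRPK* RNAi they were 95.0 to 107 CPM. By edgeR 1 of the 3 fell and 1 rose in *U2af38* RNAi, and 1 rose in *SRPK* RNAi. The 3 hub markers summed to 89.8 to 99.4 CPM, 84.5 to 107 CPM and 93.7 to 104 CPM, and the 4 markers found for spermatogonia and stem cells to 139 to 142 CPM, 159 to 193 CPM and 136 to 151 CPM, in the same order of genotypes. With TMM scaling the hub sums were 68.2 to 76.6 CPM in *U2af38* RNAi, against 114.8 to 120.8 CPM in control. In *SRPK* RNAi they were 95.9 to 113.4 CPM. The spermatogonia and stem cell sums were 105.8 to 108.8 CPM in *U2af38* RNAi on that scale, against 161.2 to 185.2 CPM in control. In *SRPK* RNAi they were 179.6 to 203.6 CPM. Of the hub markers 3 of 3 fell in *U2af38* RNAi, and in *SRPK* RNAi 2 fell and 1 rose. Of the spermatogonia and stem cell markers 1 fell and 2 rose in *U2af38* RNAi, and 2 rose in *SRPK* RNAi. The part of these shifts in the levels of the 50 members was not tested.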

How the data were processed

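The authors aligned paired reads with STAR 2.7.1a and deposited raw counts per gene from featureCounts 1.6.2 (FlyBase annotation 6.37, reverse-stranded, exons). Fragments with several alignments or shared by genes of a strand were not counted, and intron reads were not analysed here. From these counts lanes were summed, and 0 columns were left unmatched. Coordinates are those of the deposited table (dm6); symbols, gene types, transcripts and coding lengths came from Ensembl release 115 (17512 of 17575 genes matched).

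The count test was that of edgeR (version 4.0.16, R 4.3.3), its quasi-likelihood fit with genotype as the only term over all 9 libraries, after filterByExpr and TMM scaling; p-values were adjusted by Benjamini-Hochberg over 14941 genes with a threshold of 0.05. SE is the absolute log2 fold change over the square root of F. The steps were tested on simulated data. Python 3.11.15, pandas 2.3.3 and matplotlib 3.10.9 were used.

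The members, lists and tests were chosen with earlier results of these data known. Named members were the 10 most abundant in control, the 10 lowest in ratio, up to 5 largest falls and rises in *SRPK* RNAi, and the extremes of ratio limit, blocks and gaps (3 each); families by protein similarity were not searched, and other genes were chosen after their values were seen. Alternatives were DESeq2 1.42.0, other scalings, filters and limits, a replicate block, 2 genotypes only and each library left out. Replicate numbers are shared by the genotypes, but labels and methods do not say that they pair samples.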

Additional observations from a re-analysis of the deposited data

How the results depend on the processing

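The number of members moved most with the ratio: 136 genes at a ratio of at most 1/5 and 12 at 1/20. With CPM scaled by TMM factors (1.30 to 1.32 in *U2af38* RNAi, 0.816 to 0.864 in control) it was 93, which included the 50. A minimum of 5 or 20 CPM gave 56 or 44, and leaving out a library 45 to 56. The count of members that fell in *SRPK* RNAi was 28 to 38 over all alternatives, 36 with DESeq2 (33 of the 34 among them) and 28 to 34 without a library. The member that rose did so in each alternative that tested it; with at least 10 counts in every library 45 members were tested, it was not among them and 0 rose. Their median log2 fold change was −0.38 on library size alone and −0.54 to −0.45 without a library. Of the 34, 26 fell in every alternative that tested them, and no called member was called the other way. Among named members *CG33125* (adjusted p = 0.0307) lost its call in 7 alternatives, with DESeq2 among them (adjusted p = 0.0524), and *CG14609* without replicate 3 of control (adjusted p = 0.0550). Calls were gained by *CG44163* with DESeq2 (adjusted p = 0.0371), without replicate 2 of *SRPK* RNAi (0.0448) and with the block (0.0196), and by *CG33017* with the block (0.0231). The TMM-scaled levels of host genes, neighbours and the genes that missed the ratio were added after seeing the data.

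With a replicate block 38 fell, the 34 among them, and 1 rose. The deviations of same-numbered libraries correlated at −0.40, −0.30 and 0.36 between *SRPK* RNAi and control and at 0.29, 0.28 and −0.12 between *U2af38* RNAi and control, so the numbers were not taken as pairs.

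The counts cover exons only, so spliced and unspliced RNA of a member cannot be told apart. Values under about 1 CPM in *U2af38* RNAi rest on few fragments. With 3 libraries a genotype, the p-values set a difference between genotypes against the spread between libraries. That spread was estimated over all 9 libraries, so uneven *U2af38* RNAi libraries enter the *SRPK* RNAi test too.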
